A study of Mus musculus with 4 samples.

Results

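The mitochondrial ribosome is built from RNAs encoded in mitochondrial DNA and from proteins that are encoded in the nucleus, made in the cytosol and imported. The genes of these proteins were taken by name: a GENCODE vM21 protein-coding gene on chromosomes 1 to 19 was a member if its symbol began with Mrpl, for the large subunit, or Mrps, for the small subunit, followed by a digit. This rule found 78 of 20807 protein-coding genes, 49 named Mrpl and 29 named Mrps, and used no measured value. The name is not a perfect guide to the particle, since the products of Mrps18a and Mrps30 sit in the large subunit and that of Mrps36 is known as a component of the alpha-ketoglutarate dehydrogenase complex. The mitochondrial ribosome makes only the membrane subunits of the respiratory chain and the ATP synthase that mitochondrial DNA encodes, and its genes are expressed in essentially every tissue. Chromatin at such genes is usually open at the start site, with nucleosomes that carry the histone variant H2A.Z beside the open stretch.

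Liver of 2 genotypes was profiled by 2 assays, giving 4 libraries, 1 per genotype and assay. The labels do not say whether the ATACseq and H2A.Z libraries of a genotype came from the same animal, and below a liver stands for a genotype. ATACseq marks open DNA through the insertion of a transposase, and the H2A.Z libraries were made by immunoprecipitation of MNase-digested chromatin with an antibody against H2A.Z. WT liver was from Uhrf1-fl/fl males and Uhrf1hepKO liver from Uhrf1-fl/fl;Alb:Cre males, C57Bl/6 mice of 8 to 12 weeks on a normal diet with tissue taken in the morning. Both genotypes carry the floxed Uhrf1 alleles, the albumin promoter drives Cre in hepatocytes, and whole liver was used, so that cells of other types were present in both. With 1 library per genotype and assay there is no replicate error, and no difference between livers could be tested; genotype, animal and library cannot be told apart.

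The peak lists held 10439 and 10636 ATACseq peaks on chromosomes 1 to 19 (WT and Uhrf1hepKO) and 50665 and 46400 H2A.Z peaks. Of 7 hepatocyte marker genes, Pck1 had an ATACseq peak within 5 kb of its start in both livers, Alb in the Uhrf1hepKO liver only and Ttr an H2A.Z peak in the WT liver only, and 4 had no peak of any list. None of 9 marker genes of Kupffer cells and other leukocytes, endothelium, bile ducts and stellate cells had a peak. A peak at the Uhrf1 start says nothing about the deletion, so the labels were not checked by it.

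The sequences below show the starts that the results turn on, 5′ to 3′ on the strand of the gene, ending 1 base before the annotated transcription start site (TSS) and leaving out annotated exons. They were read from the RefSeq FASTA of GRCm38. Capitals mark the letters of 8 searched motifs, on either strand: the ETS family site CCGGAAG, NRF1 GCGCATGC, YY1 AAGATGGC, the Sp and KLF family site GGGCGG, NFY CCAAT, the CGCG element TCTCGCGA, ZNF143 ACTACAA and the TATA box TATAAA. Mrpl17 (chr7:105811100-105811349, minus strand) had the highest WT ATACseq peak within 5 kb of a member's TSS, and in its sequence an Sp match and an ETS match share bases. Mrps14 (chr1:160194965-160195214, plus strand) had the highest Uhrf1hepKO ATACseq peak within 5 kb of a member's TSS. Mrps22 (chr9:98601661-98601910, minus strand) and Mrps10 (chr17:47368637-47368886, plus strand) were among the highest in H2A.Z and had no ATACseq peak. Mrps12 (chr7:28741821-28741991, minus strand) and Mrps18b (chr17:35916390-35916433, minus strand) are shown with the whole stretch that separates them from a gene on the other strand. Mrpl35 (chr6:71826970-71827219, minus strand) is the member with no CpG.
Mrpl17: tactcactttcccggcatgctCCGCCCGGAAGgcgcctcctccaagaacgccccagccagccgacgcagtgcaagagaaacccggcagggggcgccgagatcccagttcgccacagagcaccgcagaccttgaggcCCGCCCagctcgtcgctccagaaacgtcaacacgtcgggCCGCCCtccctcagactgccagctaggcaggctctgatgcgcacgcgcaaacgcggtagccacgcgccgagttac
Mrps14: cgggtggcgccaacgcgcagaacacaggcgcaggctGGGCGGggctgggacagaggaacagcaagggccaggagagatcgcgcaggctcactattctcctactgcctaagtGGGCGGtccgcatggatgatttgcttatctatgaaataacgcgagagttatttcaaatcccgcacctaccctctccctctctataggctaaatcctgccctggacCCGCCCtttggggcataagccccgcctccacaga
Mrps22: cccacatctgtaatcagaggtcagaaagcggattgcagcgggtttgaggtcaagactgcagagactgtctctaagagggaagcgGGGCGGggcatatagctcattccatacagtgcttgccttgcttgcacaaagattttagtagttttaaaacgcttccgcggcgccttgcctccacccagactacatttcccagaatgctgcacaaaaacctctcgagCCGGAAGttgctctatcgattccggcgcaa
Mrps10: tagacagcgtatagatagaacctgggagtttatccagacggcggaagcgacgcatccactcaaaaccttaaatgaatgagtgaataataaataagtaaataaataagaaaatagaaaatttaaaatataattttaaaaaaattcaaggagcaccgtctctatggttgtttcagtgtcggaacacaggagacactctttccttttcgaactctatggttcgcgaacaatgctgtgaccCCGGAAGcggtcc
Mrps12: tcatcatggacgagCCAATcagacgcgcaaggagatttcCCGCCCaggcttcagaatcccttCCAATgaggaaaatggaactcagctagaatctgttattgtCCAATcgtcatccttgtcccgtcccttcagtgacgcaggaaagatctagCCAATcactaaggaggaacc
Mrps18b: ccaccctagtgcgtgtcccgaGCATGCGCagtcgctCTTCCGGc
Mrpl35: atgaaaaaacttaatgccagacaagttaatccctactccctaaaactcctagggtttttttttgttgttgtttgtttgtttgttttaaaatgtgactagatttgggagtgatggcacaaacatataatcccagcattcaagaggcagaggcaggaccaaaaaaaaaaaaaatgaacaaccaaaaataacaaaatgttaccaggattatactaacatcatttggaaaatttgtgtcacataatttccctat

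Almost every member had H2A.Z at its start, and most had an ATACseq peak there as well. Within 5 kb of the TSS, 74 of 78 members (94.9%, 95% Wilson interval 87.5 to 98.0) had an H2A.Z peak in the WT liver and again 74 in the Uhrf1hepKO liver, beside 54.4% and 52.6% of all protein-coding genes. An ATACseq peak was present at 49 members in WT (62.8%, 51.7 to 72.7) and at 45 in Uhrf1hepKO (57.7%, 46.6 to 68.0), beside 31.4% and 29.0% of all genes. With peaks below their own list's median fold left out, these counts were 31 in WT and 36 in Uhrf1hepKO, so the order of the livers depends on this choice. All genes were not recounted at that cut. Both marks were found at 48 members in WT and 45 in Uhrf1hepKO, beside 29.0% and 26.2% of all genes. In WT 1 member, Mrps7, had an ATACseq peak without H2A.Z, and no Uhrf1hepKO member did (0 of 78, upper Wilson bound 4.69%). Such genes were few over all protein-coding genes as well. Of 6537 genes with an ATACseq peak in WT 6032 also had H2A.Z, and of 6044 in Uhrf1hepKO 5444 did. The intervals cover counting error only, and the members share the same libraries.

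The intervals of the 2 subunits overlapped in both assays. In WT, 32 of 49 Mrpl genes (65.3%, 51.3 to 77.1) and 17 of 29 Mrps genes (58.6%, 40.7 to 74.5) had an ATACseq peak; in Uhrf1hepKO the numbers were 30 and 15. H2A.Z was found at 47 Mrpl and 27 Mrps genes in either liver. The 45 members whose protein family is also found in bacterial ribosomes held 27 and 28 genes with an ATACseq peak (WT and Uhrf1hepKO), and the 33 that are particular to mitochondria held 22 and 17. H2A.Z peaks lay at 41 and 43 of the bacterial families and at 33 and 31 of the mitochondrial ones.

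Other gene groups of protein synthesis and mitochondria were counted in the same way, and their differences from the members were not tested. The 77 cytosolic ribosomal protein genes had ATACseq peaks at 51 and 57 genes and H2A.Z peaks at 72 and 70. The 81 genes for nuclear-encoded subunits of oxidative phosphorylation (Atp5o is annotated under a pair of identifiers) had 49 and 57, and 71 and 73. All 5 mitochondrial ribosome genes with other names (Dap3, Ptcd3, Chchd1, Aurkaip1 and Gadd45gip1) had H2A.Z in both livers and 1 had an ATACseq peak in each. Of 20 assembly factor genes 16 and 12 had ATACseq peaks and 19 and 20 had H2A.Z peaks, and of 12 mitochondrial translation factor genes 6 and 5 and then 12 and 11 did. The plot of shares by gene group shows that every group drawn stood above all protein-coding genes while their intervals overlapped one another.

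**Figure D1:**
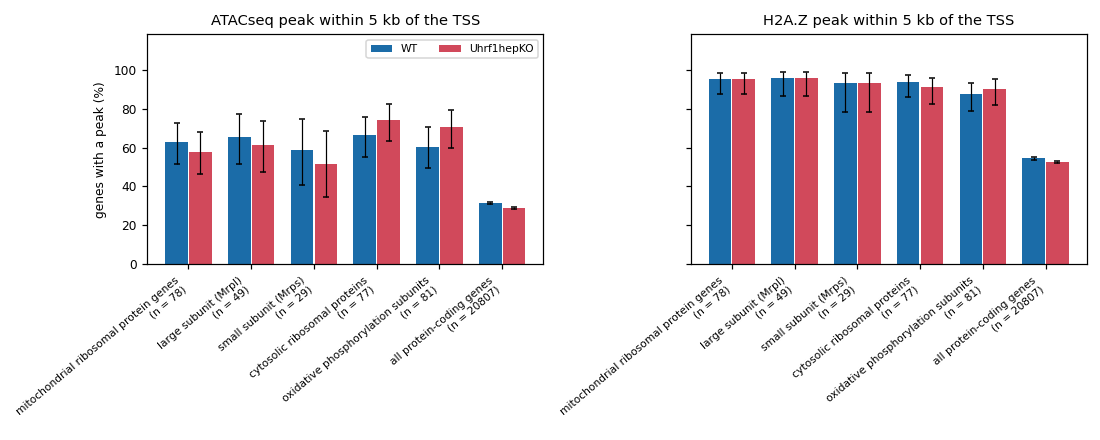
Share of genes (y axis, percent) with an ATACseq peak (left) or H2A.Z peak (right) within 5 kb of the TSS, for 6 gene groups, WT in blue and Uhrf1hepKO in red; bars start at 0 and error lines are 95% Wilson intervals for counting error. The 78 members reach 62.8% and 57.7% for ATACseq and 94.9% in both livers for H2A.Z, against 31.4%, 29.0%, 54.4% and 52.6% of all protein-coding genes.

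The height of a peak is given as the fold over background that the peak caller wrote, which is not scaled between lists. Among peaks within 5 kb of the TSS, the highest members in the WT ATACseq list were Mrpl17 at a fold of 9.32, Mrpl32 at 8.19 and Mrps9 at 7.26. Mrpl17 and Mrps9 encode proteins with bacterial counterparts, and Mrpl32 encodes a subunit that is trimmed by a mitochondrial protease before it joins the ribosome. In the Uhrf1hepKO ATACseq list Mrps14 led in the same window at 7.39, followed by Mrpl32 at 6.88 and Mrpl37 at 6.39. Mrpl32 was therefore in the leading 3 of both livers. Over the members with a peak, the median fold of the highest peak was 4.60 in WT (n = 49, range 3.46 to 9.32) and 4.44 in Uhrf1hepKO (n = 45, 3.37 to 7.39), beside 4.65 and 4.43 over all genes with a peak. Members were thus more often marked than other genes, but the median height of their ATACseq peaks was close to that of other genes. The widest ATACseq peaks were those of Mrpl35 (646 bp), Mrps18b (639 bp) and Mrpl37 (584 bp) in WT and of Mrps12 (612 bp), Mrpl23 (557 bp) and Mrpl51 (537 bp) in Uhrf1hepKO.

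The highest H2A.Z peak per gene had a somewhat higher median fold at the members than over all marked genes, and likewise at related gene groups. Folds were not compared at equal numbers of peaks per gene. The median fold of the highest peak was 8.17 in WT (n = 74, range 4.39 to 16.1) and 8.34 in Uhrf1hepKO (n = 74, 3.95 to 17.4), beside 7.31 and 7.44 over all genes with a peak. The medians were 8.29 and 8.83 at cytosolic ribosomal protein genes and 8.53 and 8.37 at oxidative phosphorylation genes. Mrps22, which encodes a small subunit protein with no bacterial counterpart, led both lists at 16.1 and 17.4. It was followed in WT by Mrps17 at 14.9 and Mrpl16 at 14.1, and in Uhrf1hepKO by Mrps10 at 13.5, with Mrps17 and Mrpl35 next at 13.0 each. The Mrps genes had a median of 9.51 and 9.06 and the Mrpl genes 8.04 and 7.67. The peak of Mrpl35 lay 4056 bp upstream of its annotated start, beside the gene Immt.

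**Figure D2:**
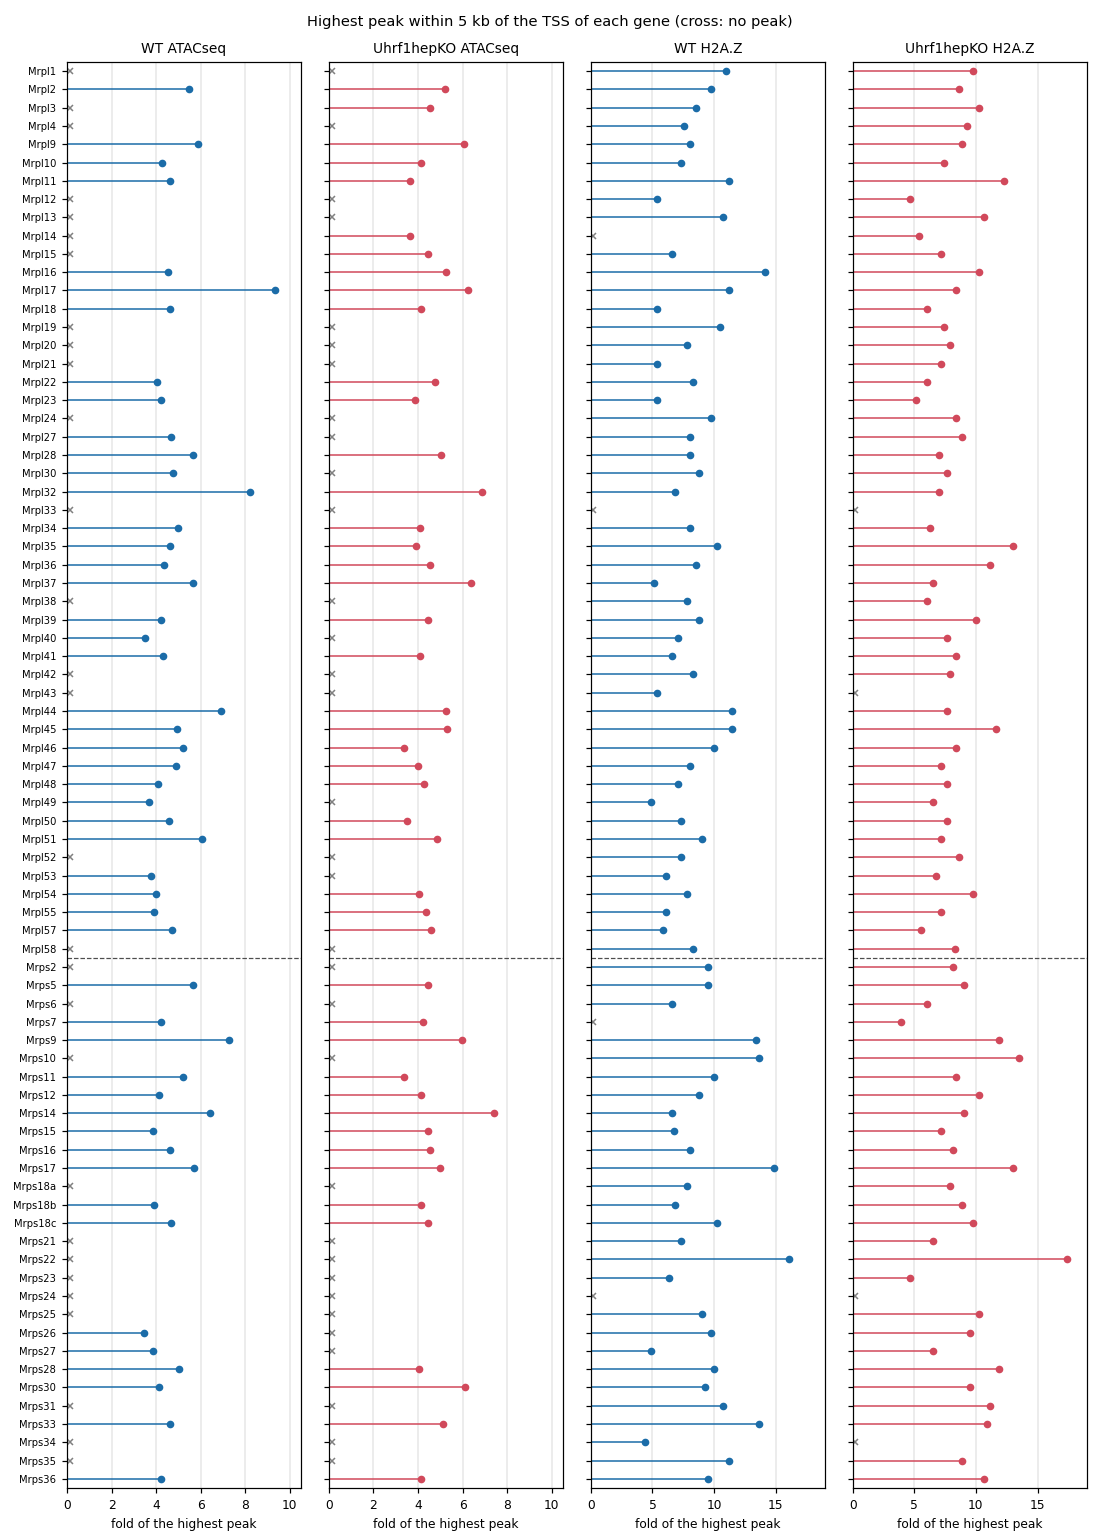
Fold over background (x axis) of the highest peak within 5 kb of the TSS for each of the 78 members (y axis, Mrpl genes above the dashed line, Mrps genes below it), 1 panel per library; grey crosses are members with no peak. Mrps22 is highest in both H2A.Z panels (16.1 and 17.4) and has a cross in both ATACseq panels; the scales of the panels are not comparable.

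H2A.Z peaks were of much the same height with and without an ATACseq peak. Of 29 WT members without an ATACseq peak, 26 had H2A.Z, with a median fold of 8.04, and the 48 with both had a median of 8.17. In Uhrf1hepKO the medians were 7.90 over 29 members without and 8.37 over 45 members with an ATACseq peak. Those 29 were of 33 without an ATACseq peak, and the 45 were all with one. H2A.Z peaks were more numerous at members with an ATACseq peak. Their mean was 2.82 per member against 2.17 without one in WT, and 2.69 against 1.88 in Uhrf1hepKO. The same means over all protein-coding genes were not counted. Of all 20807 protein-coding genes, 14270 had no ATACseq peak in WT, and 1055 of these had one in Uhrf1hepKO. The 26 members with no ATACseq peak in either liver were Mrps2, Mrpl24, Mrps21, Mrpl20, Mrpl33, Mrpl1, Mrpl19, Mrps25, Mrps35, Mrps31, Mrpl4, Mrps22, Mrpl42, Mrps24, Mrps23, Mrpl58, Mrpl38, Mrpl12, Mrpl52, Mrpl13, Mrps6, Mrps34, Mrps18a, Mrps10, Mrpl21 and Mrpl43. Among them are genes with well-known roles: Mrpl12 encodes the protein of the factor-binding stalk, and Mrpl58 a peptidyl-tRNA hydrolase that became part of the large subunit. Mrpl12 had 1 small H2A.Z peak per liver, whose summits were covered by 21 and 19 reads.

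The marks lay at different distances from the TSS. ATACseq peak centres within 1 kb of a member's TSS had a median position 18 bp upstream of it in WT (n = 47) and 4 bp downstream in Uhrf1hepKO (n = 43), and 57.4% and 65.1% of them lay within 100 bp of the TSS, beside 2787 of 5700 (48.9%) and 2613 of 5224 for all genes. Few H2A.Z summits lay in that stretch: 2.41% of 166 WT summits and 2.70% of 148 Uhrf1hepKO summits lay within 100 bp, beside 5.95% and 5.76% for all genes. Upstream summits had a median of 255 and 272 bp before the TSS, and downstream summits a median of 315 and 310 bp after it. The plot of positions shows ATACseq centres gathered at the TSS, where H2A.Z summits were few.

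**Figure D3:**
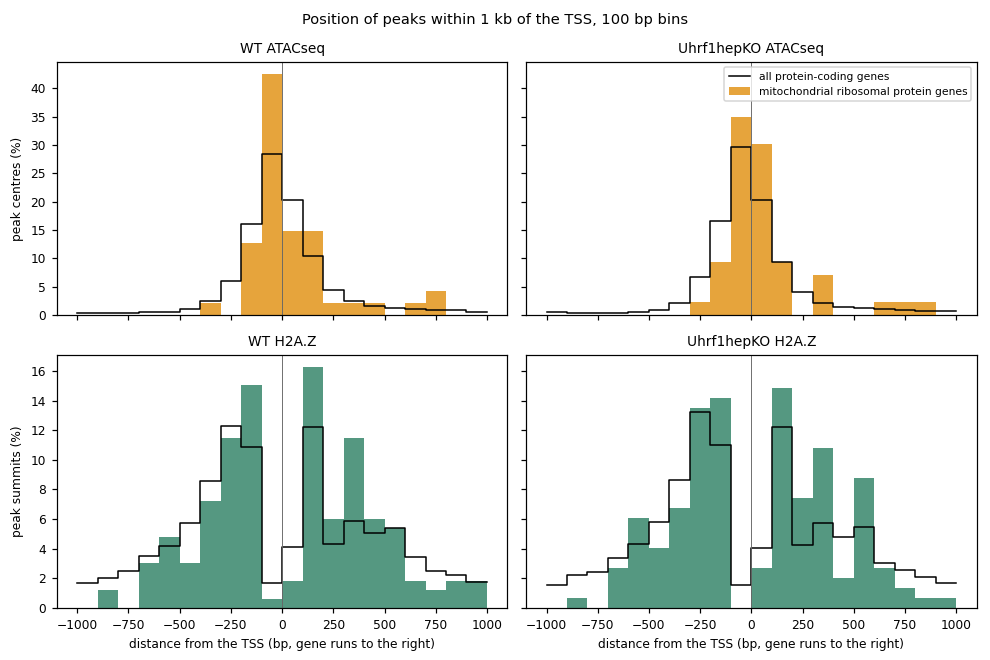
Positions of ATACseq peak centres (top) and H2A.Z summits (bottom) within 1 kb of the TSS in 100 bp bins, as percent of those points (y axis), for the members (bars) and all protein-coding genes (black line), WT left and Uhrf1hepKO right. H2A.Z summits within 100 bp of the TSS make up 2.41% and 2.70% at the members, and ATACseq centres there 57.4% and 65.1%.

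Flanking on both sides was more frequent at the members than at other genes. An H2A.Z summit lay within 500 bp both before and after the TSS at 47 members in WT (60.3%, 49.2 to 70.4) and 41 in Uhrf1hepKO (52.6%, 41.6 to 63.3), beside 17.4% and 15.6% of all genes. A further 12 and 15 members had a summit upstream only, 11 and 9 downstream only, and 8 and 13 had none in this distance. Cytosolic ribosomal protein genes had a different shape, with 25 and 17 of 77 flanked on both sides and 29 and 36 on the upstream side only. Oxidative phosphorylation genes had 33 and 24 of 81 on both sides. Where both sides were present, the nearest upstream and downstream summits were a median of 428 bp apart in WT (quartiles 343.5 and 554.5) and 452 bp in Uhrf1hepKO (367 and 542), beside 447 and 444 bp over all genes. At Mrps9, for example, the WT summits lay 220 bp before and 183 bp after the TSS, around an ATACseq peak of 431 bp.

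**Figure D4:**
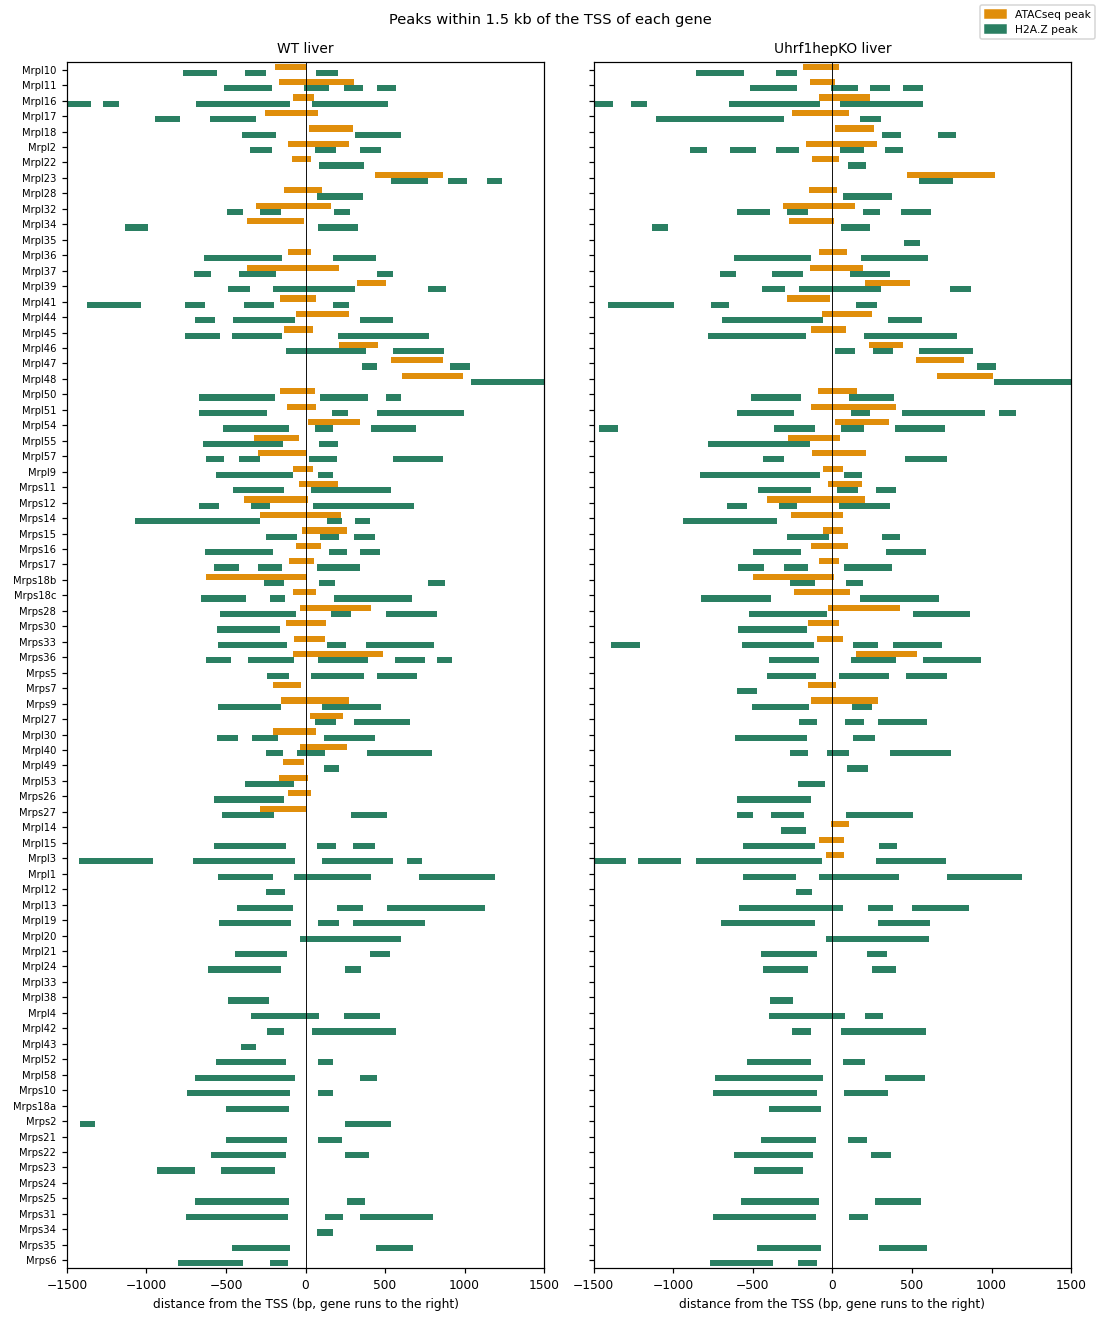
ATACseq peaks (orange) and H2A.Z peaks (green) within 1.5 kb of the TSS of each member (y axis), drawn to scale against distance from the TSS (x axis, bp), WT left and Uhrf1hepKO right; members are ordered by an ATACseq peak in both livers (42), WT only (7), Uhrf1hepKO only (3) and neither (26). Most orange bars touch or lie next to the TSS line and most green bars lie to its sides, also at members without orange.

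Members also held more H2A.Z peaks than protein-coding genes as a whole, and so did related gene groups. Within 5 kb there were 201 peaks in WT and 183 in Uhrf1hepKO, a mean of 2.58 and 2.35 per member beside 1.27 and 1.17 per protein-coding gene. The means were 2.17 and 1.94 at oxidative phosphorylation genes and 1.9 and 1.78 at cytosolic ribosomal protein genes. At least 2 peaks were found at 62 and 59 members, beside 7890 and 7223 of 20807 genes. The same held for 54 and 51 of 81 oxidative phosphorylation genes and 43 and 39 of 77 cytosolic ribosomal protein genes. Mrpl3, which encodes a core protein of the large subunit, had the most in WT with 7 and had 4 in Uhrf1hepKO. Mrps33 had 4 in WT and 6 in Uhrf1hepKO, and Mrpl36 likewise 4 and 6. At Mrpl36, next to the complex I gene Ndufs6, the peaks fell into 2 groups. One flanked the annotated TSS, and the other lay around an ATACseq peak centred 2614 bp (WT) and 2649 bp (Uhrf1hepKO) downstream, near the RefSeq start of Mrpl36, which is 2496 bp downstream of the GENCODE gene start.

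Most peaks at the members had an overlapping peak in the other liver. Of 51 distinct WT ATACseq peaks at members 42 overlapped a Uhrf1hepKO peak (82.4%, 69.7 to 90.4), and of 47 Uhrf1hepKO peaks 42 overlapped a WT peak (89.4%, 77.4 to 95.4), beside 72.9% and 78.0% of the peaks at all genes. For H2A.Z the shares were 81.4% of 199 and 88.3% of 180, beside 78.3% and 84.4%. An H2A.Z peak in both livers was found at 72 members, beside 10489 of 20807 protein-coding genes. An ATACseq peak in both livers was found at 42 members. Over all genes, 6537 had an ATACseq peak in WT, and 1548 of these had it in WT only. The 42 were Mrps9, Mrpl44, Mrps14, Mrpl41, Mrps5, Mrps28, Mrpl47, Mrpl9, Mrpl50, Mrpl37, Mrps15, Mrps18c, Mrps17, Mrps33, Mrpl35, Mrpl51, Mrps12, Mrpl46, Mrps11, Mrpl48, Mrpl17, Mrpl23, Mrpl34, Mrpl54, Mrpl22, Mrpl55, Mrpl10, Mrpl45, Mrps7, Mrpl32, Mrpl36, Mrps36, Mrps30, Mrps16, Mrpl57, Mrpl39, Mrpl18, Mrpl28, Mrps18b, Mrpl2, Mrpl11 and Mrpl16.

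An ATACseq peak in WT only was found at 7 members (8.97% of 78), beside 7.44% of all genes, and in Uhrf1hepKO only at 3 (3.85%), beside 5.07%. These shares are near those of all genes. With peaks below their own list's median fold left out, the counts turned round, to 9 in WT only and 14 in Uhrf1hepKO only. All genes were not recounted at that cut, so the shares of 7.44% and 5.07% cannot be set beside these 2 counts. The 7 were Mrpl30 (fold 4.76), Mrpl27 (4.65), Mrps27 (3.85), Mrpl53 (3.79), Mrpl49 (3.69), Mrpl40 (3.51) and Mrps26 (3.46), and at 5 of them at most 27.2% of the WT list had a lower fold. The 42 members with a peak in both livers had a median WT fold of 4.62, and these 7 a median of 3.79. The 3 were Mrpl3 (4.54), Mrpl15 (4.43) and Mrpl14 (3.65), with a median of 4.43 beside 4.44 for the 42 in that liver. For H2A.Z, 2 members were marked in WT only, Mrpl43 (5.36) and Mrps34 (4.39), beside 3.99% of all genes, and 2 in Uhrf1hepKO only, Mrpl14 (5.35) and Mrps7 (3.95), beside 2.17%. Mrpl14, whose product has a bacterial counterpart, was thus the only member with neither mark within 5 kb in WT and both in Uhrf1hepKO. Each of these calls rests on 1 library per genotype, and the absence of a called peak does not show the absence of signal.

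The H2A.Z folds move in steps that correspond to 1 read over the summit, which gave the coverage behind 94.0% of the WT and 91.6% of the Uhrf1hepKO peaks. The fitted background was 3.10 and 3.30 reads per base. The 70 members with a value in both livers had a median of 33 reads over the summit of their highest peak in WT (range 19 to 65) and 35 in Uhrf1hepKO (19 to 74), beside 30 and 32 over 10082 genes. The median ratio of Uhrf1hepKO to WT was 1.06, beside 1.07 over all genes; 40 members (57.1%) were higher in Uhrf1hepKO, 25 lower and 5 equal, beside 61.0% of all genes higher. These reads are not scaled, and the background differed between the libraries. On the fold over each library's own background, a comparison added after the values were seen, the median ratio was 1.01 for the members and for all genes, with 37 members higher and 33 lower in Uhrf1hepKO. Mrps22 had 65 reads in WT (95% Poisson interval 50.2 to 82.8) and 74 in Uhrf1hepKO (58.1 to 92.9). The most different members were Mrpl44, with 46 and 32 reads, and Mrps14, with 26 and 38, and their intervals overlapped. At no member did the counting intervals of the livers lie apart, in either direction (0 of 70, beside 0.0198% of all genes higher and 0.0198% lower). Intervals that overlap do not show that the livers are equal, and the size of difference detectable at this depth was not tested. The summits themselves were a median of 16 bp apart between livers, beside 19 bp over all genes. Of 72 members 53 (73.6%) had them within 100 bp, beside 68.2% of all genes. At the other members the reads compared above came from summits further apart, such as 1005 bp at Mrpl51, 803 bp at Mrpl40 and 711 bp at Mrpl15.

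Many members share their start region with a neighbour that runs the other way. The TSS of 18 members (23.1%) lay within 1 kb of a divergent protein-coding start, with a median gap of 82 bp (26 to 935), and the same holds for 6.97% of all protein-coding genes. Mrps12, which encodes a protein of the decoding centre, starts 172 bp from Sars2, the mitochondrial seryl-tRNA synthetase, and Mrpl49 starts 59 bp from Fau, which encodes a cytosolic ribosomal protein. Mrpl32 starts 75 bp from the proteasome gene Psma2, Mrpl40 starts 175 bp from the histone chaperone gene Hira, and Mrps18b starts 45 bp from Ppp1r10. The others were Mrpl30 with Mitd1, Mrpl41 with Pnpla7, Mrps5 with Zfp661, Mrpl50 with Zfp189, Mrpl37 with Cyb5rl, Mrps18c with Helq, Mrpl51 with Ncapd2, Mrpl54 with Apba3, Mrpl10 with Lrrc46, Mrps27 with Ptcd2, Mrpl57 with Ska3, Mrps34 with Eme2 and Mrpl2 with Klc4. At a further 8 members a start on the other strand lay 1 to 500 bp inside the member, a class added after the values were seen. This class was not counted over all protein-coding genes, so the 8 do not show a trait of the members. In it, 1 pair joins 2 members, Mrpl46 and Mrps11, which start 412 bp apart and were counted with the same peaks.

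ATACseq peaks lay at 17 of the 18 divergent members in WT (94.4%) and at 13 in Uhrf1hepKO (72.2%), against 32 of the other 60 (53.3%) in each liver. The lone exception in WT was Mrps34. The 4 that had a peak in WT and none in Uhrf1hepKO were Mrpl30, Mrps27, Mrpl40 and Mrpl49. H2A.Z was found at 18 and 17 of the 18 and at 56 and 57 of the 60. The 60 include the 8 members with an overlapping start, of which 6 and 5 had an ATACseq peak. At Mrps5, 1 of the 18, the ATACseq peak was centred 2539 bp (WT) and 2507 bp (Uhrf1hepKO) upstream, away from the shared start. The same shares over the 1450 divergent protein-coding genes were not counted, so these values do not show a trait particular to the members. A window around a shared start cannot say which gene of the pair a peak belongs to. Over all members, 44 of 52 WT and 40 of 48 Uhrf1hepKO ATACseq peaks in the window were at least as near to the member's TSS as to any other coding start, and so were 150 of 201 and 130 of 183 H2A.Z peaks. At Mrpl47 and Mrpl48 every peak in the window was nearer to another start, that of the complex I gene Ndufb5 and of Rab6a.

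The annotated start decided the result at a few members. Of the 69 members with a RefSeq start, 50 had it within 100 bp of the GENCODE start, and the median difference was 18 bp. At others it was larger, such as 850 bp at Mrpl47, 622 bp at Mrpl1 and 498 bp at Mrpl39. Distances, flanks and promoter sequences were all read from the GENCODE start, so at such members they do not describe the RefSeq start. Mrpl33 and Mrps24 had no peak of any list within 5 kb of the TSS, yet both had peaks in the gene body. The GENCODE start of Mrpl33 (chr5:31596935, plus strand) belongs to a noncoding transcript, and the RefSeq start lies 17016 bp downstream. There the WT ATACseq peak spanned chr5:31613897-31614228 with a fold of 3.74, and the Uhrf1hepKO peak chr5:31614001-31614264 with a fold of 3.92. The highest H2A.Z peak lay just before it, at chr5:31613427-31613888 in WT with 39 reads over the summit and at chr5:31613448-31613893 in Uhrf1hepKO with 50. Mrps24 showed the same with H2A.Z alone: its RefSeq start is 7979 bp downstream of the GENCODE start, and the highest peaks, with 26 and 32 reads, had their summits 7792 bp downstream in both livers. With the 5′ end of any transcript as a start, 76 of 78 members had H2A.Z in each liver, beside 58.1% and 56.1% of all genes. Mrpl35 is a related case, and the sequence printed above, from before its GENCODE start, holds no CpG. Its RefSeq start is 3185 bp downstream, where H2A.Z summits lay on both sides in both livers (2986 and 3514 bp downstream of the GENCODE start in WT with 38 and 34 reads, 3007 and 3325 bp in Uhrf1hepKO with 40 and 35) around an ATACseq peak of fold 3.84 that was called in WT only. The highest peaks of its window lay on the far side instead, with H2A.Z summits 4056 bp upstream and ATACseq centres 4557 (WT) and 4826 bp upstream, so that its ATACseq peak in both livers was that near the start of Immt, a gene of the mitochondrial inner membrane organising complex.

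Within gene bodies, peaks lay at 45 and 44 members for ATACseq (WT and Uhrf1hepKO), beside 31.3% and 29.6% of all genes, and at 68 and 63 for H2A.Z, beside 47.8% and 45.0%. Most of these were the start site peaks. Body peaks outside the 5 kb window were found at 3 members for ATACseq in each liver (3.85%, beside 8.94% and 9.36% of all genes) and at 6 for H2A.Z (7.69%, beside 19.3% and 18.3%). The 6 were Mrpl33, Mrps24, Mrpl48, Mrpl58, Mrps27 and Mrps6. A gene shorter than 5 kb cannot have such a peak, and some members, such as Mrpl34 and Mrpl53, are that short. Gene length was not matched, so the lower shares do not show that internal peaks are scarce at the members. Mrpl48 had 10 H2A.Z peaks over its body in either liver, 9 of them outside the window, among them summits with 49 and 48 reads beside an ATACseq peak of fold 3.70 in WT and 3.95 in Uhrf1hepKO, about 17 kb into the gene. Mrpl58 had 1 H2A.Z peak over an exon far from its TSS, with 40 and 32 reads.

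Mrps27, which encodes a pentatricopeptide repeat protein of the small subunit, carried an internal site with higher ATACseq folds than its start. An ATACseq peak in its intron, centred 8520 bp after the TSS in WT and 8502 bp in Uhrf1hepKO, had folds of 6.62 and 7.67, above the 3.85 of the WT peak at the TSS, and no ATACseq peak was called at the TSS in Uhrf1hepKO. H2A.Z summits lay on both sides, 8292 and 8779 bp after the TSS in WT with 36 and 19 reads, and 8298 and 8775 bp in Uhrf1hepKO with 31 and 30 reads. The nearest annotated coding start was that of Mrps27 itself. The bases covered by the ATACseq peaks of both livers (chr13:99353172-99353410, GRCm38, plus strand, 239 bases in an intron, 15 CpGs) follow, with the NFY letters, which read CCAAT on the other strand, in capitals.
Mrps27 intron: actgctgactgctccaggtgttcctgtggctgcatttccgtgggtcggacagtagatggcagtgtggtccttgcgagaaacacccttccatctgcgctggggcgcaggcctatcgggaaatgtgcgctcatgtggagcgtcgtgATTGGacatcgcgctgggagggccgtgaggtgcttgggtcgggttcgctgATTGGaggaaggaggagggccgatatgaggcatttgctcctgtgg

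Promoter sequence was read from 250 bp before to 50 bp after each TSS. The members had a median of 18 CpGs (0 to 38) and 57.7% G and C, beside 12 CpGs and 55.3% over all protein-coding genes. The most CpGs were found at Mrpl49 (38), Mrps6 (37) and Mrps7 (37), and the fewest at Mrpl35 (0), Mrpl23 (2) and Mrpl1 (6). The RefSeq starts of Mrpl35, Mrpl23 and Mrpl1 lie 3185, 346 and 622 bp downstream of the GENCODE start, outside the stretch counted. Since peaks go with CpGs over all genes, the members were also set beside genes with as many. Of 2383 genes with 15 to 19 CpGs, 47.7% and 44.1% had an ATACseq peak and 75.7% and 74.7% an H2A.Z peak, and of the 20 members in this class 13 and 11, and 20 and 20, did. With 20 to 24 CpGs the shares were 54.1% and 50.7%, and 80.8% and 78.6%, of 2183 genes, and 9 and 7, and 15 and 15, of 15 members. With 25 to 29 CpGs an ATACseq peak lay at 6 and 5 of 11 members, beside 55.6% and 51.3% of 1781 genes. In the other classes the counts were 8 and 8 of 10 members with 30 or more CpGs, beside 47.4% and 41.9%, 8 and 9 of 14 with 10 to 14, beside 36.2% and 32.5%, 3 and 3 of 6 with 5 to 9, beside 18.6% and 18.1%, and both members with fewer, beside 8.14% and 8.09%. With 25 to 29 CpGs, H2A.Z peaks lay at 11 and 9 of the 11 members, beside 81.1% and 77.5% of genes. With 30 or more they lay at 8 and 10 of the 10, beside 75.3% and 72.8%. With 10 to 14 they lay at 12 and 12 of the 14, beside 66.4% and 64.6%. With 5 to 9 they lay at 6 and 6 of the 6, beside 43.9% and 41.6%. Both members with fewer CpGs had H2A.Z in each liver, beside 21.2% and 20.2%. Each class holds few members, and the classes rest on the GENCODE start.

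The ETS family site, bound by factors such as GABPA that drive many nuclear genes for mitochondrial proteins, was present in 27 of 78 promoters (34.6%, 25.0 to 45.7), beside 11.0% of all promoters of this length, 28.6% at cytosolic ribosomal protein genes and 18.5% at oxidative phosphorylation genes. Its 31 matches lay close to the TSS: 28 of them (90.3%) began no further than 100 bp upstream, beside 76.4% over all genes. As the printed sequences show, it stood 30 bp before the TSS of Mrps22, 13 bp before that of Mrps10 and, on the other strand, 8 bp before that of Mrps18b. The RefSeq starts of these genes lie 19 bp upstream, 310 bp downstream and 51 bp upstream of the GENCODE starts used here. The YY1 site was found at 10 members (12.8%, 7.12 to 22.0), beside 2.93%, with a median position 15.5 bp after the TSS. NRF1 was found at 7 (8.97%, 4.42 to 17.4), beside 3.45%. The CGCG element was found at 2, Mrpl40 and Mrpl57 (2.56%), beside 1.35%, and ZNF143 at 6 (7.69%, 3.57 to 15.8), beside 3.83%. At cytosolic ribosomal protein genes the shares were 6.49% for YY1, 3.9% for NRF1, 14.3% for CGCG and 14.3% for ZNF143. At oxidative phosphorylation genes they were 8.64%, 9.88%, 2.47% and 8.64%, so related groups equalled or passed the members for some of these sites.

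The Sp and KLF family and NFY sites were about as common as elsewhere. The former was present at 35 members (44.9%), beside 43.7%, and the latter at 28 (35.9%), beside 38.6%. The TATA box was found at 5 (6.41%, 2.77 to 14.1), beside 12.7%, and only that of Mrpl16 began within 100 bp of the TSS. The Sp and KLF site was found at 18 of 29 Mrps genes (62.1%, 44.0 to 77.3) and 17 of 49 Mrpl genes (34.7%, 22.9 to 48.7). The ETS site was found at 13 Mrps and 14 Mrpl genes, and the ZNF143 site at 6 Mrpl genes and no Mrps gene (0 of 29, upper bound 11.7%). Most kinds of motif in a promoter, 4 of the 8, were found at Mrps12, Mrpl42 and Mrps18b. These are matches of letters and not measured binding.

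**Figure D5:**
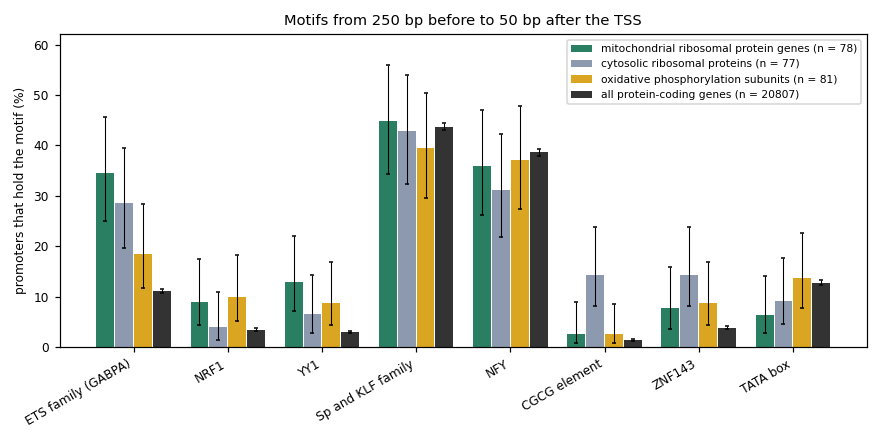
Share of promoters (y axis, percent, from 250 bp before to 50 bp after the TSS) that hold each of 8 motifs on either strand, for the 78 members, 77 cytosolic ribosomal protein genes, 81 oxidative phosphorylation genes and all 20807 protein-coding genes; error lines are 95% Wilson intervals. The ETS family site stands at 34.6% of members against 11.0% of all genes, while the Sp and KLF family and NFY sites stand near the share of all genes.

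Members with the ETS letters had fewer ATACseq peaks than members without them. In WT 12 of 27 with the motif (44.4%, 27.6 to 62.7) and 37 of 51 without it (72.5%, 59.1 to 82.9) had a peak within 5 kb, and in Uhrf1hepKO 9 of 27 (33.3%, 18.6 to 52.2) and 36 of 51 (70.6%, 57.0 to 81.3). Over all protein-coding genes the order was the opposite, with 52.1% and 48.3% of genes with the motif and 28.8% and 26.7% of genes without it. H2A.Z showed little of this, at 25 and 23 of the 27 and 49 and 51 of the 51. Both livers hold the same genes and are not independent evidence of this split, and it was chosen after the values were seen.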

How the data were processed

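Nuclei of liver tissue were used for ATACseq and MNase-digested chromatin for the H2A.Z libraries. The authors trimmed and quality-checked the reads (FastQC 0.11.5 and Trimmomatic per the labels), aligned them with BWA-MEM to GRCm38.p4, cleaned the alignments with Picard and called peaks with MACS2 in each library, for ATACseq as broad peaks at a p setting of 0.05; the control and mode for H2A.Z are not given in the sources used here. Per the file headers and MACS2 format, the deposited columns hold a score, a fold enrichment (a ratio to background, averaged over a broad peak) and −log10 p and −log10 q; the highest q was 0.0997 and 0.0993 for ATACseq and 0.0500 and 0.0489 for H2A.Z. Read depth is unknown apart from the steps of the H2A.Z folds, whose p matched a Poisson tail at the fitted background.

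Peaks on chromosomes 1 to 19 were joined to GENCODE vM21 genes (TSS: 5′ end of the gene; overlap of 1 bp with a window of 5 kb on each side, or with the body) in Python 3.11.15 with numpy 2.4.6, pandas 2.3.3 and scipy 1.17.1, checked on planted peaks. A summit (H2A.Z) or centre (ATACseq) gave the position. No peak ended beyond its chromosome in the RefSeq FASTA of GRCm38.p6, from which sequences were read; 69 members were in the RefSeq promoter table. No test was run, since each group held 1 library. Genes named singly were the 3 highest per list, those with no peak, those marked in 1 liver, those with most or widest peaks, with body peaks outside the window, with extreme CpG counts and with most motifs. The members and gene lists were chosen with earlier results of these data known.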

Additional observations from a re-analysis of the deposited data

How the results depend on the processing

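With 1 library per genotype and assay, no alternative could be set against replicate error. The counts of members with a peak at the TSS stayed within 1.5 times of their value with a window of 1 kb or 500 bp, a q of at most 0.01, the same number of peaks from both livers, the summit or centre in the window, or any transcript start. Leaving out peaks below their own list's median fold left 31 WT and 36 Uhrf1hepKO members with ATACseq at the TSS, and in WT 29 over the body and 31 with both assays. It gave 9 members with ATACseq in WT only and 14 in Uhrf1hepKO only, and 4 with H2A.Z in WT only; that last count was also 4 with the 500 bp window. Requiring the centre inside the body left 24 (WT) and 25 (Uhrf1hepKO) members with a body ATACseq peak. The share of peaks found in the other liver was 92.5%, 93.2% and 92.5% for Uhrf1hepKO H2A.Z with the 1 kb window, the 500 bp window and the median fold, and 59.5% for Uhrf1hepKO ATACseq with the median fold. An overlap of at least 50% of both peaks gave 68.6% and 74.5% for ATACseq and 68.3% and 75.6% for H2A.Z (WT and Uhrf1hepKO), and a gap of up to 200 bp gave 88.9% and 93.3% for H2A.Z. On the strand of the gene alone, the ETS site was at 14 members, NRF1 at 4, YY1 at 6, Sp and KLF at 19 and NFY at 13, fewer by construction. The cause of the other shifts was not tested. No paired analysis was possible because each group held 1 library and no test was run.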
